A study of Mus musculus with 14 samples.

Results

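The genes described here are 35 members of the peroxisome proliferator-activated receptor (PPAR) and fatty acid oxidation programme, measured in sorted mouse intestinal stem cells. The members were listed by symbol, with earlier results of these data known, and no measured value enters the rule. They are 4 receptors and coactivators, 5 PPAR target genes, 2 acyl-CoA synthetases, 4 genes of the carnitine shuttle, 4 acyl-CoA dehydrogenases, 4 genes of the later beta-oxidation steps, 3 of electron transfer, 3 of double-bond handling, 3 thioesterases, 2 peroxisomal enzymes and 1 gene of omega oxidation. All 35 were found in both count tables, each under 1 identifier, among 55335 genes. All 35 also passed the filter on low counts in both tables, where 17364 genes of the Chrm3 experiment and 16807 genes of the ageing experiment were tested.

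Polyadenylated RNA was sequenced from 14 libraries of Lgr5-positive cells of the intestine, taken by the green fluorescence that the Lgr5 locus drives. In the Chrm3 experiment every mouse carried Lgr5CreERT2-IRES-GFP together with Chrm3flox/flox, where Chrm3 encodes the M3 muscarinic acetylcholine receptor and the Cre acts in Lgr5-expressing cells. WT mice received vehicle and KO mice received tamoxifen for 3 days, and each genotype had an NT group and an ES group, giving 4 groups of 2 libraries (WT NT and WT ES, KO NT and KO ES). The ageing experiment compared Lgr5CreERT2-IRES-GFP mice at 2 months (young) and 18 months (old), with 3 libraries each, all WT and NT. The labels do not spell out NT or ES, and the series title speaks of chronic stress. The age of the mice in the Chrm3 experiment is not given. Genotype and injection cannot be told apart, since the WT mice did not receive tamoxifen. The labels do not say that the libraries came from different animals, and the p-values therefore reflect spread among libraries that may be technical.

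PPARs are nuclear receptors that bind fatty acids, pair with a retinoid X receptor and switch on genes for the uptake, activation and burning of fat. Long-chain fatty acids enter mitochondria through the carnitine shuttle and are shortened there by a cycle of dehydrogenase, hydratase and thiolase steps, while peroxisomes shorten very long chains by a similar cycle with their own enzymes. In intestinal stem cells this programme is known to respond to fasting and dietary fat and to bear on how well the cells form organoids.

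Library totals were 26683563 to 36882310 counts in the Chrm3 experiment and 32366366 to 35804988 counts in the ageing experiment. Levels are given as CPM, counts scaled to a common library size, after trimmed mean of M-values (TMM) scaling, calls are adjusted p-values under 0.05 by the edgeR quasi-likelihood test with Benjamini-Hochberg adjustment over all tested genes of a table, and a log2 fold change is given with its approximate standard error (SE). Chrm3 itself had 355 and 386 counts for WT NT, 357 and 291 for WT ES, 343 and 254 for KO NT, and 256 and 213 for KO ES. Its log2 fold change in KO against WT was -0.50 ± 0.16 (SE) in NT (edgeR adjusted p = 0.119) and -0.68 ± 0.17 in ES (adjusted p = 0.0363). Which exons were removed is not stated in the labels, and reads outside them check nothing. The stem cell markers Lgr5 and Olfm4 were present in every library, Lgr5 at 80.3 to 133 CPM and Olfm4 at 7975 to 12846 CPM.

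Per kilobase of exon, the electron carrier subunit Etfa and the thiolase Acaa2 were the highest members in WT NT, at 93.8 and 87.5 CPM per kb. Ucp2, an uncoupling protein homologue, and Hadh, a 3-hydroxyacyl-CoA dehydrogenase, followed at 63.8 and 63 CPM per kb. The 4 lowest were Cyp4a10 and Acot12 at 0.191 CPM per kb each, Pdk4 at 0.568 and Angptl4 at 0.967. Among the receptors Ppard had 12.2 CPM per kb, Ppara 7.73 and Pparg 3.04, and the coactivator gene Ppargc1a had 2.6. The young libraries had the same gene at the top, Etfa at 90.2 CPM per kb, and Cyp4a10 at the bottom at 0.118. Differences between neighbours in this order were not tested.

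In KO against WT without ES, 8 of the 35 members were called and all 8 fell, where 4.47% of all tested genes were called, 2.11% falling and 2.36% rising. They were the 3 mitochondrial carnitine shuttle genes Cpt1a, Slc25a20 and Cpt2, the dehydrogenase Acadl, both subunits of the trifunctional protein (Hadha and Hadhb) and the thioesterases Acot1 and Acot2. The median log2 fold change of the 35 was -0.09, beside -0.01 over all tested genes. Both KO libraries lay below both WT libraries for 17 of the 35 members and above them for 2, where 25.4% and 22.7% of all tested genes did so. Cpt1a kept its call whichever library was left out. The other 7 each lost it in at least 1 such fit, and 1 call was left without WT NT replicate 1 and 2 without WT NT replicate 2, fits in which 0.79% and 0.866% of all tested genes were called.

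In KO against WT with ES, 16 of the 35 members were called, where 7.56% of all tested genes were. The edgeR test had 15 of them lower, against 4.47% of all genes, and Pparg higher, against 3.09%. The 15 were Ppara, Ppard, Ppargc1a, Pdk4, all 4 carnitine shuttle genes, Acadl, Acadvl, Hadha, Hadhb, Acaa2, Etfdh and Acot2. The median log2 fold change of the 35 members was -0.33, beside 0.00 over all tested genes. For 27 members both KO ES libraries lay below both WT ES libraries, where 26.3% of all tested genes did, and for 3 they lay above, where 27% did. Cpt1a, Cpt2 and Ppara kept their calls whichever library was left out. The number of calls was 5 without replicate 2 of either ES group, and 10 without replicate 1 of either ES group or without 1 of the WT NT libraries. In these fits 2.05% to 5.19% of all tested genes were called.

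Neither contrast of ES with NT called a member. In WT, 0 of 35 passed the edgeR test, where 3.48% of all tested genes did (2.1% higher and 1.39% lower). At an unadjusted p under 0.05 there were 8 members, while DESeq2 called 3 and limma-voom 0. In KO, 0 of 35 passed, where 0.513% of all tested genes did (0.415% higher and 0.0979% lower). There 6 members had an unadjusted p under 0.05, with 1 call by DESeq2 and 0 by limma-voom. What share of all tested genes reached that unadjusted cut is not given here, so the 8 and the 6 are not set against a background. The median log2 fold change of the members was 0.03 in WT and -0.07 in KO, beside 0.00 over all tested genes in each. In WT 13 members lay higher and 7 lower in ES without overlap, where 26% and 26.9% of all tested genes did. In KO the counts were 1 higher and 15 lower, where the shares of all tested genes were 17.1% and 16.1%. Ppargc1a, Cpt2 and Acot1 passed for ES in WT when KO NT replicate 1 was left out, and again when KO NT replicate 2 was. Pdk4 passed for ES in KO without KO NT replicate 1, where KO NT was replicate 2 alone. The shares of all tested genes called in fits with a library left out are given below.

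With age, 8 of the 35 members were called and all 8 rose, where 7.84% of all tested genes were called, 4.42% rising and 3.42% falling. They were Pdk4, Angptl4, Acot1, Acot2, Cpt2, Ppara, Hadha and Slc25a20. In a single draw of simulated counts of the ageing design 8.29% of the calls were false, above the threshold used. The median log2 fold change of the 35 members was 0.16, beside 0.00 over all tested genes. All 3 old libraries lay above all 3 young libraries for 16 members and below them for 1, where 13.2% of all tested genes did so in each direction. Leaving out young replicate 2 or old replicate 1 ended the calls of Slc25a20 and Hadha, and the other 6 calls held whichever library was left out. Over the 6 comparisons 17 members were never called by the edgeR test. Of these 17, DESeq2 called Etfb in KO with ES and Cyp4a10 in old, and limma-voom called none.

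**Figure D1:**
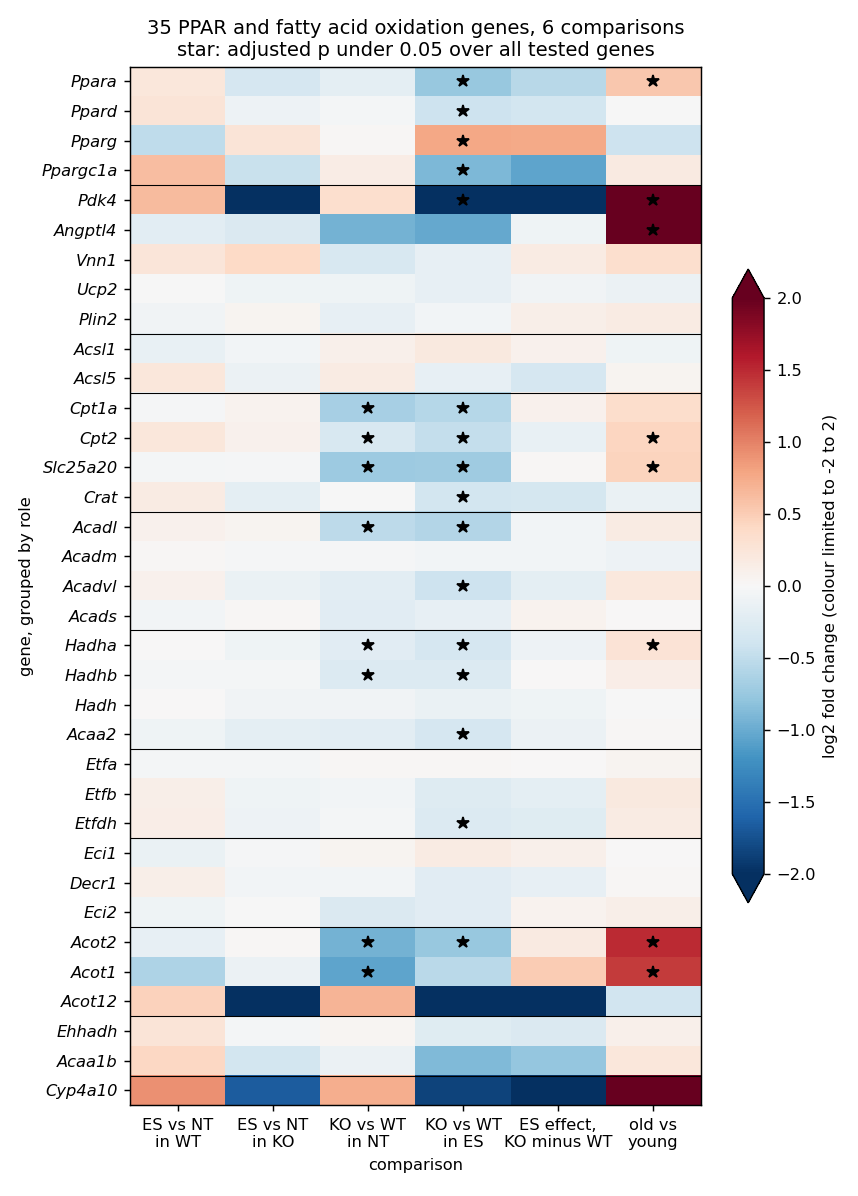
Log2 fold change of each of the 35 members (rows, grouped by role) in the 6 comparisons (columns), with colour limited to the range shown on the scale and a star where the adjusted p was under 0.05. Stars stand at 8 members in KO against WT in NT, 16 in KO against WT in ES and 8 in old against young, with no star in the ES columns.

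The groups of genes that fell in KO without ES and with ES come from libraries that are not shared, though the Chrm3 libraries share 1 estimate of the spread. Of the 8 members that fell without ES, 7 also fell with ES, which is 87.5% of the first list and 46.7% of the second. The exception was Acot1, at -0.54 ± 0.19 (SE) with ES (edgeR adjusted p = 0.113). The ageing libraries are another table. Of the 8 members that rose in old, 5 were among those that fell in KO without ES (62.5% of each list): Acot1, Acot2, Cpt2, Hadha and Slc25a20. With ES, 6 of the 15 members that fell in KO rose in old (40% of the KO list and 75% of the old list), namely Acot2, Cpt2, Hadha, Pdk4, Ppara and Slc25a20. What share of all tested genes overlaps in the same way is not given here. The overlaps are therefore not set against a background and are not read as particular to the members.

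Ppara encodes the receptor that drives fatty acid oxidation in fasting (chr15:85734983-85802819, plus strand, mm10). Its level was 29.5 and 29.8 CPM for WT NT, 32.7 and 37 for WT ES, 24.4 and 27.4 for KO NT, and 19.7 and 21.5 for KO ES. The KO ES libraries were the lowest and overlapped no other group. Ppara fell in KO against WT with ES by 0.76 on the log2 scale (SE 0.10, edgeR adjusted p = 0.00132), and its change without ES was -0.20 ± 0.10 (adjusted p = 0.329). In the ageing table the young libraries had 21.6, 23 and 21.6 CPM and the old 36.5, 31.1 and 28.8. The groups did not overlap, and the gene rose by 0.54 ± 0.10 (edgeR adjusted p = 0.00634).

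Ppargc1a encodes PGC-1 alpha, a coactivator of PPARs and of mitochondrial biogenesis. It stood at 17.2 and 17.1 CPM for WT NT, 23.1 and 29.4 for WT ES, 15.9 and 22.3 for KO NT, and 12.3 and 15.6 for KO ES. WT ES was the highest group and KO ES the lowest. Ppargc1a fell in KO against WT with ES by 0.90 on the log2 scale (SE 0.17, edgeR adjusted p = 0.0115). Its change with ES in WT, 0.61 ± 0.17, did not pass (adjusted p = 0.0817), and 3 predicted genes overlap it on the same strand. Young and old overlapped, with a change of 0.18 ± 0.11 (adjusted p = 0.414).

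Ppard encodes the widely expressed delta receptor, the member of the family most studied in intestinal stem cells. It had 92.6 and 91.1 CPM for WT NT, 114 and 107 for WT ES, 86.6 and 91.7 for KO NT, and 90.2 and 75.7 for KO ES. With ES it was lower in both KO libraries than in both WT libraries, with a fall of 0.41 on the log2 scale (SE 0.08, edgeR adjusted p = 0.0153). Between young and old its change was -0.01 ± 0.10 (adjusted p = 0.979).

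Pparg encodes the receptor known for fat cell formation. Its levels were 8.89 and 9.07 CPM for WT NT, 5.69 and 7 for WT ES, 8.27 and 9.99 for KO NT, and 9.33 and 12.2 for KO ES. Pparg was the member that rose in KO against WT with ES, by 0.77 ± 0.18 (SE) on the log2 scale (edgeR adjusted p = 0.0258), and the groups did not overlap. The WT ES libraries were the lowest of the 4 groups, and the call was lost without any 1 of the WT libraries or without KO ES replicate 2. With age Pparg changed by -0.41 ± 0.17 (adjusted p = 0.193).

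Cpt1a encodes carnitine palmitoyltransferase 1A, the outer-membrane enzyme that sets the pace of long-chain fatty acid entry (chr19:3322334-3385733, plus strand, mm10). The WT libraries had 290 and 280 CPM in NT and 278 and 286 in ES, and the KO libraries had 175 and 185 in NT and 194 and 186 in ES. Every KO library lay below every WT library. Cpt1a fell in KO against WT to 0.633-fold without ES (log2 fold change -0.66 ± 0.06 SE, edgeR adjusted p = 0.000135) and to 0.674-fold with ES (-0.57 ± 0.06, adjusted p = 0.000336). ES itself changed it by -0.02 ± 0.06 in WT and 0.07 ± 0.06 in KO, and neither passed (adjusted p = 0.92 and 0.831). In the ageing table young had 301, 235 and 219 CPM and old 327, 319 and 314. These groups did not overlap, and the change of 0.35 ± 0.10 missed the threshold (adjusted p = 0.0533).

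Slc25a20 encodes the carnitine-acylcarnitine carrier of the inner mitochondrial membrane. WT NT had 39.2 and 35.8 CPM, WT ES 33.9 and 39.1, KO NT 20.9 and 24.5 and KO ES 23.6 and 21.2. As with Cpt1a, the KO libraries were all below the WT libraries. The falls in KO were -0.73 ± 0.11 (SE) without ES (edgeR adjusted p = 0.0042) and -0.71 ± 0.11 with ES (adjusted p = 0.00395). Young libraries had 33.8, 29.1 and 29.2 CPM and old libraries 44.5, 43.7 and 37.3. The gene rose in old by 0.45 ± 0.09 (adjusted p = 0.0127), without overlap.

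Slc25a20 was the called member with a match to the PPAR response element in its promoter. The element was written as AGGTCA repeated in the same direction with any 1 letter between the copies, and searched on both strands of the 300 bases from 250 before to 50 after each RefSeq start (GRCm38.p6), with at most 2 of its 12 fixed letters differing. The promoter table held 29 of the 35 members, and 4 of these 29 genes had a match (13.8%), beside 4.4% of all 27025 genes in the table. No member had a match without a differing letter. All 4 are shown to let their letters be compared, 5′ to 3′ on the strand of the match, with the 13 matched bases in capitals. The match of Slc25a20 begins 6 bases after the start at chr9:108662134-108662162 (plus strand) and that of Acot12 lies at chr13:91741403-91741431 (minus strand). The match of Etfa lies at chr9:55512300-55512328 (plus strand) and that of Plin2 at chr4:86670264-86670292 (plus strand).
Slc25a20: ctgaatgtAGGTGAAAGGTCGgcggagcc
Acot12: tgcttaggAGGTGAGAGGTCAgggtccta
Etfa: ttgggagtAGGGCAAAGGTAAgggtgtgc
Plin2: tctgacttAGGTCAGGGGTCCtgaaagct
Acot12 had 1 differing letter and the other 3 had 2. A match is a description of the letters in these windows, and the other 3 genes were called in none of the 6 comparisons by the edgeR test.

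Cpt2, which returns the acyl group from carnitine to coenzyme A inside the mitochondrion, had 75.9 and 76.2 CPM for WT NT, 88.5 and 89.9 for WT ES, 57.9 and 64.3 for KO NT, and 63.9 and 65.1 for KO ES. All 4 KO libraries were lower than all 4 WT libraries, and WT ES was the highest group. Cpt2 fell in KO by 0.32 on the log2 scale without ES (SE 0.07, edgeR adjusted p = 0.0268) and by 0.47 with ES (SE 0.07, adjusted p = 0.00271). Old libraries, at 98.6, 103 and 94.2 CPM, were above young libraries at 75.7, 75.1 and 69.7. The rise in old was 0.43 ± 0.06 (adjusted p = 0.00201). Crat, the carnitine acetyltransferase of mitochondria and peroxisomes, had 24.7 to 33.2 CPM across the Chrm3 experiment and fell in KO with ES by 0.36 (SE 0.09, adjusted p = 0.0308). That call was lost without any 1 of the WT or KO ES libraries.

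**Figure D2:**
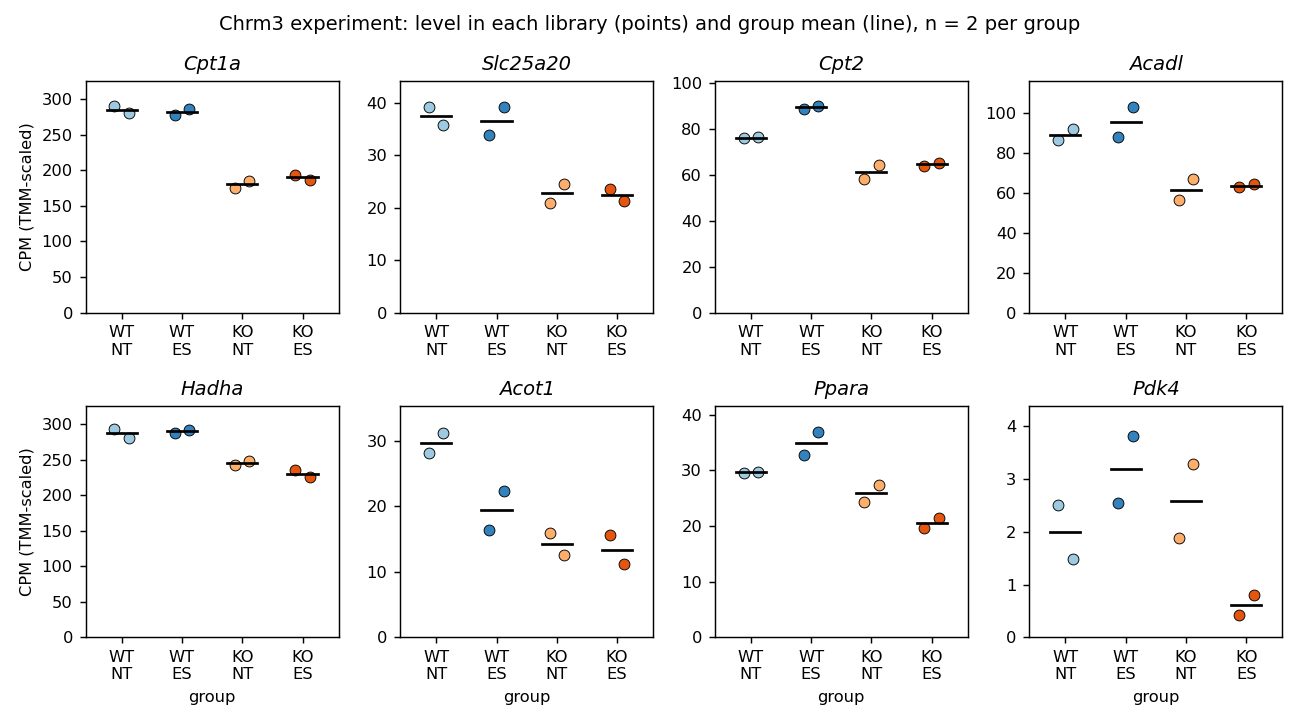
CPM after TMM scaling (vertical axes from 0) of 8 members in the 4 groups of the Chrm3 experiment, with a point per library and a line at the group mean of 2 libraries. For Cpt1a, Slc25a20, Cpt2, Acadl and Hadha both KO groups lie below both WT groups, and for Pdk4 the KO ES libraries at 0.413 and 0.794 CPM are the lowest.

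Acadl, the long-chain acyl-CoA dehydrogenase, had 86.5 and 91.7 CPM for WT NT, 87.7 and 103 for WT ES, 56.3 and 66.8 for KO NT, and 62.8 and 64.4 for KO ES. KO and WT did not overlap with or without ES. The falls were -0.53 ± 0.10 (SE) without ES (edgeR adjusted p = 0.0113) and -0.58 ± 0.10 with ES (adjusted p = 0.0054). Acadvl, which acts on very long chains at the inner membrane, had 155 and 147 CPM for WT NT, 159 and 159 for WT ES, 124 and 137 for KO NT, and 123 and 115 for KO ES. It fell in KO with ES (-0.42 ± 0.07, adjusted p = 0.0054), and its change of -0.21 ± 0.07 without ES did not pass (adjusted p = 0.123). With age Acadl changed by 0.16 ± 0.07 (adjusted p = 0.204) and Acadvl by 0.21 ± 0.07 (adjusted p = 0.104).

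The dehydrogenases for shorter chains were called in none of the 6 comparisons by the edgeR test. Acadm, the medium-chain enzyme, stood at 92.7 to 117 CPM in the Chrm3 experiment, with a change in KO of -0.02 ± 0.11 without ES (edgeR adjusted p = 0.965) and -0.06 ± 0.11 with ES (adjusted p = 0.794). For Acads, the short-chain enzyme, the changes were -0.23 ± 0.09 (adjusted p = 0.182) and -0.16 ± 0.09 (adjusted p = 0.306). Differences between the 4 dehydrogenase genes were not tested.

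Hadha and Hadhb encode the alpha and beta subunits of the mitochondrial trifunctional protein, which carries out the hydratase, dehydrogenase and thiolase steps on long chains. The genes lie head to head on chromosome 5, Hadha at chr5:30118304-30155162 (minus strand) and Hadhb at chr5:30155248-30184593 (plus strand) in GENCODE M21. The 85 bases between them, chr5:30155163-30155247 of GRCm38.p6, are shown because both genes start at its edges and both fell in the same comparisons, and 69.4% of the letters are G or C. The plus strand from the RefSeq promoter table reads 5′ to 3′ as follows.
Hadha-Hadhb: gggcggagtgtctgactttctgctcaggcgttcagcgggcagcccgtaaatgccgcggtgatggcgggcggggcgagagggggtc
Hadha had 293 and 281 CPM for WT NT, 288 and 292 for WT ES, 243 and 248 for KO NT, and 236 and 225 for KO ES. Hadhb had 154 and 159 CPM for WT NT, 151 and 153 for WT ES, 130 and 130 for KO NT, and 128 and 125 for KO ES. For both genes every KO library was below every WT library. Hadha fell in KO by 0.23 on the log2 scale without ES (SE 0.06, edgeR adjusted p = 0.0454) and by 0.33 with ES (SE 0.06, adjusted p = 0.00592). Hadhb fell by 0.27 without ES (SE 0.06, adjusted p = 0.0206) and by 0.27 with ES (SE 0.06, adjusted p = 0.0164). Without ES the Hadha call was lost in every fit that left out a WT or KO NT library and with relative log expression size factors, no count filter, the quasi-likelihood test in its older form or the 2 groups fitted alone.

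With age, Hadha went from 294, 284 and 268 CPM in young to 339, 342 and 335 in old. It rose by 0.27 ± 0.05 (SE, edgeR adjusted p = 0.0101). Hadhb had 162, 157 and 150 CPM in young and 172, 171 and 170 in old. The groups did not overlap, and the change of 0.13 ± 0.05 did not pass (adjusted p = 0.17). Hadh, the 3-hydroxyacyl-CoA dehydrogenase for shorter chains, had 278 to 320 CPM over both tables and was called in none of the 6 comparisons by the edgeR test. Acaa2, the mitochondrial thiolase, had 98.8 and 100 CPM in KO ES and 120 and 131 in WT ES, and it fell by 0.33 (SE 0.08, adjusted p = 0.0254). The Acaa2 call was lost without any 1 of the WT or KO ES libraries.

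Electrons from the acyl-CoA dehydrogenases pass to the flavoprotein of Etfa and Etfb and from it to the dehydrogenase of Etfdh. Etfdh had 112 and 108 CPM in KO ES and 136 and 132 in WT ES, without overlap, and fell by 0.28 on the log2 scale (SE 0.06, edgeR adjusted p = 0.0254). The call was lost without any 1 of the WT or KO ES libraries. Etfb changed by -0.26 ± 0.07 in the same comparison (adjusted p = 0.0568) and Etfa by 0.03 ± 0.07 (adjusted p = 0.834). Without ES the 3 genes changed by -0.06 to 0.03. Eci1, Eci2 and Decr1, which reposition or remove double bonds of unsaturated chains, were called in none of the 6 comparisons by the edgeR test. In KO with ES they ranged from -0.23 for Eci2 (adjusted p = 0.134) to 0.16 for Eci1 (adjusted p = 0.23). Of the 3, 2 had an unadjusted p under 0.05, a cut for which no share of all tested genes is given here.

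Acyl-CoA synthetases trap fatty acids in the cell by joining them to coenzyme A. Acsl5 had 241 to 306 CPM and Acsl1 83.5 to 104 CPM in the Chrm3 experiment. The edgeR test called neither in any of the 6 comparisons. For ES in WT, Acsl5 changed by 0.22 ± 0.09 (edgeR adjusted p = 0.22), and for KO with ES, Acsl1 changed by 0.19 ± 0.07 (adjusted p = 0.155).

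Acot1 and Acot2 encode the cytosolic and the mitochondrial long-chain acyl-CoA thioesterase, classic PPAR alpha targets. They are neighbours on chromosome 12, 15.6 kb apart, and their transcripts are 94.3% identical over 1330 aligned bases. Their values are therefore uncertain, because the counting can split reads between them. Acot1 had 28.1 and 31.1 CPM for WT NT, 16.4 and 22.3 for WT ES, 15.9 and 12.5 for KO NT, and 15.6 and 11.1 for KO ES. WT NT stood above the other 3 groups. Acot1 fell in KO without ES to 0.482-fold (log2 fold change -1.05 ± 0.18 SE, edgeR adjusted p = 0.00869), and with ES in WT its change of -0.62 ± 0.18 did not pass (adjusted p = 0.0863). Acot2 had 10.1 and 10.1 CPM for WT NT, 7.22 and 10.9 for WT ES, 5.25 and 5.28 for KO NT, and 5.65 and 5.02 for KO ES. All KO libraries were below all WT libraries, with falls of -0.94 ± 0.19 without ES (adjusted p = 0.0188) and -0.76 ± 0.20 with ES (adjusted p = 0.0411).

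In the ageing table Acot1 stood at 18.6, 15.9 and 12.9 CPM in young and 46.2, 42 and 36.9 in old. It rose 2.64-fold (log2 fold change 1.40 ± 0.13 SE, edgeR adjusted p = 9e-05). Acot2 stood at 7.11, 5.69 and 5.63 CPM in young and 19.8, 16.8 and 14.9 in old, a rise of 2.81-fold (1.49 ± 0.15, adjusted p = 0.000171). For both, the lowest old library was far above the highest young one. Acot12, a cytosolic acetyl-CoA hydrolase, had 3 to 63 counts per library over both tables and was called in none of the 6 comparisons by the edgeR test. Its change in KO with ES, -2.38 ± 0.95, rested on 3 and 8 counts in KO ES (adjusted p = 0.161).

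**Figure D3:**
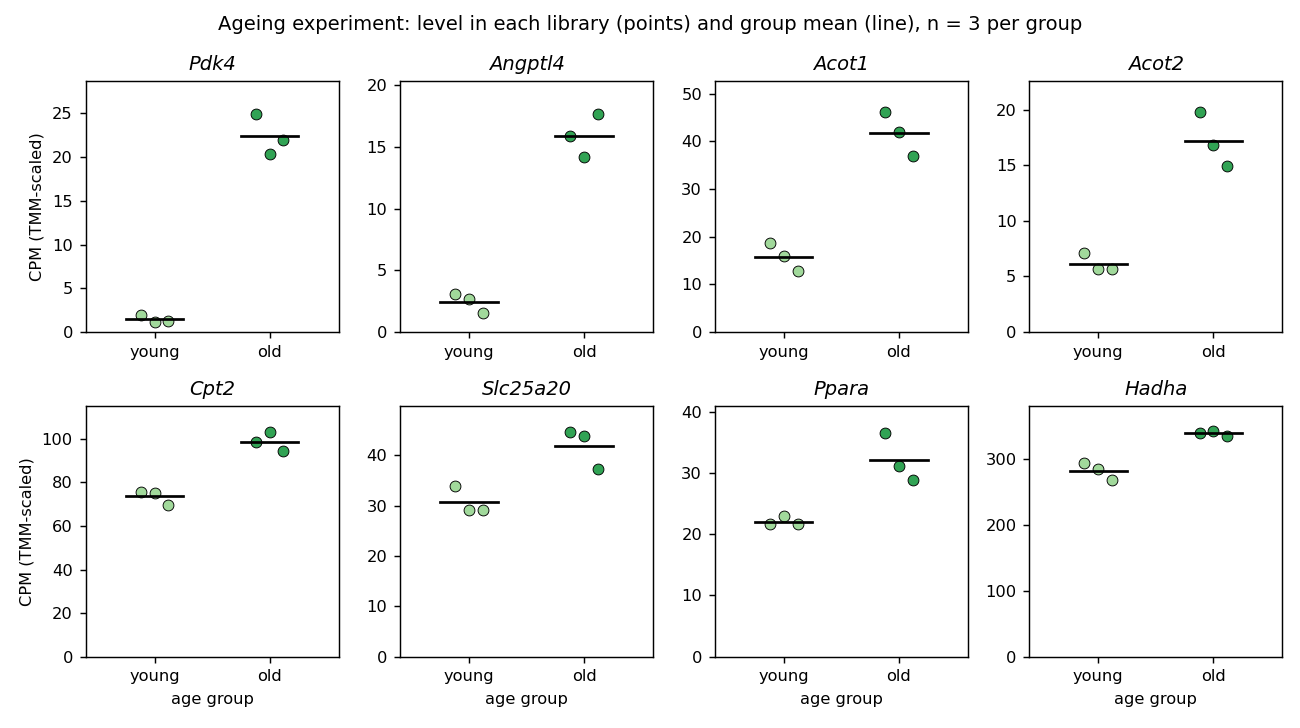
CPM after TMM scaling (vertical axes from 0) of the 8 members that rose in old, with a point per library and a line at the mean of 3 libraries. Young and old do not overlap in any of the 8, and Pdk4 shows the widest gap, from at most 2 CPM in young to at least 20.4 CPM in old.

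Pdk4 encodes pyruvate dehydrogenase kinase 4, which holds back glucose oxidation when fat is burned and is a PPAR target in many tissues (chr6:5483351-5496309, minus strand, mm10). Its level was 2.51 and 1.48 CPM for WT NT, 2.54 and 3.82 for WT ES, 1.89 and 3.28 for KO NT, and 0.413 and 0.794 for KO ES. KO ES, with 13 and 28 counts, was below all other libraries. Pdk4 fell in KO against WT with ES to 0.196-fold (log2 fold change -2.35 ± 0.47 SE, edgeR adjusted p = 0.0141). That call was lost without WT ES replicate 2 or either KO ES library. Between KO ES and KO NT the change was -2.05 ± 0.48 (adjusted p = 0.112).

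In the ageing table Pdk4 went from 2, 1.19 and 1.26 CPM in young to 24.9, 20.4 and 21.9 in old. It rose 15.2-fold (log2 fold change 3.92 ± 0.18 SE, edgeR adjusted p = 1.98e-06), the largest change of the 35 members in this comparison. Angptl4, a secreted inhibitor of lipoprotein lipase and a target of all 3 PPARs, had 3.12, 2.7 and 1.57 CPM in young and 15.9, 14.2 and 17.7 in old. It rose 6.49-fold (2.70 ± 0.20, adjusted p = 1.86e-05). In the Chrm3 experiment it had 2.95 and 3.9 CPM in WT NT and 2.15 and 1.34 in KO NT, a change of -0.95 ± 0.31 that did not pass (adjusted p = 0.134). With ES the levels were 2.57 and 3.37 CPM in WT and 1.84 and 1.08 in KO (-1.03 ± 0.35, adjusted p = 0.103). The KO libraries were lower without overlap in each.

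Of the remaining PPAR targets, Vnn1 makes pantetheinase, Plin2 coats lipid droplets and Ucp2 is a mitochondrial carrier. The edgeR test called none of them in the 6 comparisons. With age Vnn1 changed by 0.33 ± 0.13 (edgeR adjusted p = 0.172), Plin2 by 0.17 ± 0.06 (adjusted p = 0.138) and Ucp2 by -0.11 ± 0.06 (adjusted p = 0.313). Cyp4a10, which starts omega oxidation and is a strong PPAR alpha target in liver, had 0 to 41 counts per library. Its transcript is 95.7% identical to Cyp4a31 and 97.2% to Cyp4a32, so its values are uncertain. Old libraries had 41, 38 and 26 counts and young libraries 18, 7 and 0, and the change of 2.10 ± 0.59 missed the threshold (adjusted p = 0.053).

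Ehhadh, the bifunctional enzyme of peroxisomal beta-oxidation, had 68.8 and 60.5 CPM for WT NT, 77.7 and 75.8 for WT ES, 61.9 and 71 for KO NT, and 67.4 and 61.8 for KO ES. WT ES was highest and the other 3 groups overlapped. In KO with ES its change was -0.25 ± 0.09 (edgeR adjusted p = 0.121). Young had 59.7, 62.4 and 64.8 CPM and old 70.8, 68.8 and 61.1, which overlap. Acaa1b, a peroxisomal thiolase, had 1.56 to 3.97 CPM over both tables, and its transcript is 96.6% identical to that of Acaa1a, so its values are uncertain. Its change in KO with ES was -0.88 ± 0.30 (adjusted p = 0.108). Neither was called in any of the 6 comparisons by the edgeR test. An unadjusted p under 0.05 was reached by both in KO with ES, and by Ehhadh also for ES in WT and for the difference of the ES effects. The share of all tested genes that reached it is not given here.

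The mitochondrial and peroxisomal branches were set side by side. On one side stood 16 members that serve mitochondrial steps of fatty acid oxidation only (Cpt1a, Cpt2, Slc25a20, Acadl, Acadm, Acadvl, Acads, Hadha, Hadhb, Hadh, Acaa2, Etfa, Etfb, Etfdh, Eci1 and Decr1). On the other stood the 2 peroxisomal members with 25 further peroxisomal genes, of which 25 in all were tested. Crat and Eci2, which act in both compartments, and the thioesterase Acot2, which was called in both KO comparisons and with age, stand outside these counts. So do Pdk4 and Ucp2, which were listed as PPAR targets. The peroxisomal side is broader in kind, as it also holds genes such as Cat and Pex11a that are not steps of beta-oxidation. In KO without ES, 6 of the 16 mitochondrial genes fell, with a median log2 fold change of -0.21, where 2.11% of all tested genes fell and 2.36% rose. Of the 25 peroxisomal genes 2 rose and 2 fell, with a median of -0.07. Hsd17b4, the D-bifunctional protein, rose by 0.28 ± 0.06 (SE, edgeR adjusted p = 0.02) and Decr2, a peroxisomal dienoyl-CoA reductase, by 0.50 ± 0.08 (adjusted p = 0.00725). The genes that fell were Acaa1a (-0.32 ± 0.07, adjusted p = 0.0304), a thiolase with the near copy named above, and Cat, the catalase gene (-0.33 ± 0.07, adjusted p = 0.0205). Without KO NT replicate 1 the peroxisomal median was 0.05 and without KO NT replicate 2 it was -0.21.

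In KO with ES, 9 of 16 mitochondrial genes fell (median -0.28), while 5 of 25 peroxisomal genes fell and Decr2 rose (median -0.21), where 4.47% of all tested genes fell and 3.09% rose. Cat (-0.48 ± 0.07 SE, edgeR adjusted p = 0.00219), the carnitine octanoyltransferase gene Crot (-0.40 ± 0.09, adjusted p = 0.0222) and Acaa1a (-0.30 ± 0.07, adjusted p = 0.0335) were among those that fell. In old against young 3 of 16 mitochondrial genes rose (median 0.15) and 4 of 25 peroxisomal genes rose (median 0.07), where 4.42% of all tested genes rose. Among the latter were Acot4 (0.87 ± 0.14, adjusted p = 0.00324), whose transcript is 86.1% identical to that of Acot1 over 707 aligned bases, Pex11a (0.57 ± 0.09, adjusted p = 0.00338), a peroxisome proliferation gene and PPAR alpha target, and the transporter gene Abcd3 (0.20 ± 0.05, adjusted p = 0.0399). The difference between the branches was not tested.

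**Figure D4:**
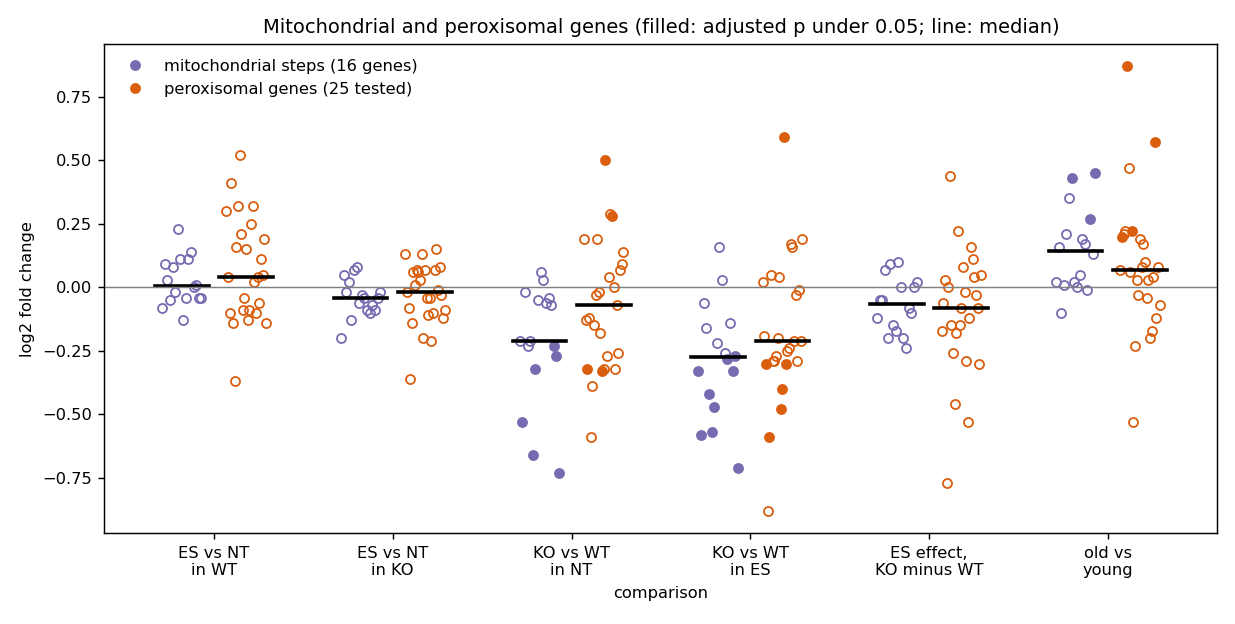
Log2 fold change of each mitochondrial member (16 genes) and each tested peroxisomal gene (25 genes) in the 6 comparisons, filled where the adjusted p was under 0.05, with a line at the median. In KO against WT the mitochondrial medians are -0.21 and -0.28, and the peroxisomal medians are -0.07 and -0.21.

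The mean log2 CPM over the 35 members was 5.39 and 5.33 for WT NT, 5.35 and 5.52 for WT ES, 5.11 and 5.28 for KO NT, and 4.98 and 4.97 for KO ES. KO ES was the lowest group. Over the 16 mitochondrial members it was 6.84 and 6.81, 6.85 and 6.86, 6.55 and 6.66, and 6.57 and 6.56 in the same order, with every KO library below every WT library. Over the 25 peroxisomal genes it was 4.92 and 4.95, 4.96 and 5.05, 4.77 and 4.95, and 4.84 and 4.84. There KO NT overlapped WT NT. In the ageing table the 35 members averaged 5.33, 5.24 and 5.13 in young and 5.71, 5.70 and 5.57 in old, without overlap.

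The change with ES in KO minus that in WT passed for 0 of the 35 members by the edgeR test, where 0.109% of all tested genes passed. At an unadjusted p under 0.05 there were 11 members, with 2 calls by DESeq2 and 0 by limma-voom. What share of all tested genes reached that unadjusted cut is not given here, so the 11 are not set against a background. For 7 members both WT libraries were higher with ES and both KO libraries were lower with ES, where 3.32% of all tested genes showed that pattern and 3.06% the opposite one. These were Pdk4 (difference -2.69 ± 0.61 SE, edgeR adjusted p = 0.145), Ppargc1a (-1.05 ± 0.25, adjusted p = 0.149), Ppara (-0.56 ± 0.14, adjusted p = 0.159), Crat (-0.35 ± 0.12, adjusted p = 0.314), Etfdh (-0.24 ± 0.09, adjusted p = 0.36), Acadvl (-0.20 ± 0.10, adjusted p = 0.463) and Etfb (-0.20 ± 0.10, adjusted p = 0.493). With KO NT replicate 1 left out, Ppara, Ppargc1a, Pdk4 and Acsl5 passed, but KO NT was then replicate 2 alone. Each of these genes was higher in replicate 2 than in replicate 1, with 3.28 and 1.89 CPM for Pdk4 and 22.3 and 15.9 for Ppargc1a. For Ppara the levels were 27.4 and 24.4 CPM and for Acsl5 306 and 254.

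Among 98 further genes of the pathway in 8 lists, 89 were tested in the Chrm3 table and 86 in the ageing table. In KO without ES 6 rose and 5 fell, where 4.47% of all tested genes were called. With ES 6 rose and 16 fell in KO, where 7.56% of all tested genes were called. With age 11 rose and 4 fell, where 7.84% of all tested genes were called. For ES in WT 4 rose and 1 fell, where 3.48% of all tested genes were called.

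Of 10 genes of fatty acid uptake and binding, 4 fell and 1 rose in KO with ES, where 7.56% of all tested genes were called. Without ES 1 fell and 1 rose, where 4.47% of all tested genes were called. Fabp1, the liver-type fatty acid binding protein of the gut, fell to 0.223-fold with ES (-2.16 ± 0.24 SE, edgeR adjusted p = 0.000553), with 21.4 ± 1.69 CPM (SD, n = 2) in KO ES and 96.4 ± 23.9 in WT ES. Without ES its change was -0.29 ± 0.22 (adjusted p = 0.551), and the difference of its ES effects was -1.87 ± 0.33 (adjusted p = 0.0723). The fatty acid transporter genes Cd36 (-2.30 ± 0.32, adjusted p = 0.00218) and Slc27a4 (-0.61 ± 0.08, adjusted p = 0.00114) also fell with ES. The synthetase gene Acsl4 rose in KO both without ES (0.78 ± 0.17, adjusted p = 0.0271) and with ES (0.67 ± 0.16, adjusted p = 0.0291). In old Fabp1 rose by 0.93 ± 0.14 (adjusted p = 0.00265).

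Of 15 tested partners of the receptors, 1 (6.67%) rose in KO without ES, where 4.47% of all tested genes were called. That count is close to the share of all genes. With ES 1 rose and 2 fell, where 7.56% of all tested genes were called. Hnf4g, a fatty-acid-binding nuclear receptor of the gut epithelium, fell with ES by 0.54 on the log2 scale (SE 0.09, edgeR adjusted p = 0.0046), and Creb3l3, a membrane-bound factor that acts with PPAR alpha, fell by 1.64 (SE 0.29, adjusted p = 0.00805). Lpin1 rose without ES (0.61 ± 0.15, adjusted p = 0.0499) and with ES (0.57 ± 0.15, adjusted p = 0.0435). In old, 3 partners rose and 2 fell, where 4.42% of all tested genes rose and 3.42% fell. Among them Creb3l3 (0.98 ± 0.14, edgeR adjusted p = 0.00217) and Rxrb (0.34 ± 0.07, adjusted p = 0.0112) rose, and Ppargc1b (-0.45 ± 0.08, adjusted p = 0.00496) fell. Among other PPAR targets, Retsat fell in KO with ES (-0.40 ± 0.07, adjusted p = 0.00909) and rose in old (0.23 ± 0.06, adjusted p = 0.0435), and Cyp4a32 rose in old (2.07 ± 0.32, adjusted p = 0.00311), with the near copies named above. Of 10 further genes listed here as mitochondrial, 2 fell in KO with ES, where 4.47% of all tested genes fell. They were Acad11 (-0.65 ± 0.09, edgeR adjusted p = 0.00163) and Acad10 (-0.58 ± 0.13, adjusted p = 0.0259). The compartment of their products was not checked, and neither gene was counted in the branches set side by side above. With ES in WT, Acad11 rose by 0.39 ± 0.09 (adjusted p = 0.0381) and Hnf4g by 0.37 ± 0.09 (adjusted p = 0.0469).

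Markers of other intestinal cell types moved with the same groups. In KO without ES all 7 goblet cell markers, all 5 tested tuft cell markers, 2 of 7 enteroendocrine and 2 of 6 Paneth cell markers and 1 of 8 stem cell markers fell, and 2 of 10 enterocyte and 1 of 3 tested myeloid markers rose. Of all tested genes 2.11% fell and 2.36% rose there. In KO with ES 7 of 10 enterocyte markers fell and 1 rose, and 7 of 7 goblet, 6 of 7 enteroendocrine, 3 of 5 tuft and 2 of 6 Paneth markers fell, while 3 of 8 stem cell markers rose. The shares of all tested genes were 4.47% lower and 3.09% higher. For the difference of the ES effects, 2 of 10 enterocyte and 1 of 7 goblet markers fell, where 0.0979% of all tested genes did. All 10 enterocyte markers lay below 0 in that difference, with a median log2 value of -1.12. The summed level of the 10 enterocyte markers was 1530 to 1546 CPM in WT NT, 2090 to 2283 in WT ES, 1361 to 1598 in KO ES, and 1378 and 1951 in the KO NT libraries. The 7 goblet markers summed to 4968 to 5084, 10106 to 10315, 4311 to 4346 and 2527 to 2598 CPM in the same order. The 8 stem cell markers summed to 13836 to 14147, 10857 to 11220, 13848 to 14563 and 14393 to 16116 CPM. Their part in the changes of the members was not tested, and in bulk samples fewer cells of a type and less RNA per cell cannot be told apart. KO NT replicate 2 also had the largest share of counts from mitochondrially encoded genes, 8.74%, beside 6.12% to 7.53% in the other 13 libraries.

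With age all 6 tested lymphocyte markers rose, and their summed level went from 26 to 39.3 CPM in young to 140 to 171 CPM in old. All 5 tested tuft markers fell, from 140 to 170 CPM to 76.4 to 77.6 CPM summed, and 4 of 7 enteroendocrine markers rose, from 220 to 247 to 318 to 468 CPM. Of 7 goblet markers 3 rose and 1 fell, of 10 enterocyte markers 1 rose and 1 fell, 1 of 4 tested myeloid markers rose (summed level 35.8 to 57.6 CPM in young and 63.4 to 94.1 in old), and 3 of 6 Paneth markers and 1 of 8 stem cell markers fell. Among all tested genes 4.42% rose and 3.42% fell with age. The enterocyte sum was 2026 to 2409 CPM in young and 1938 to 2162 in old, which overlap. The part of these cells in the rise of Pdk4, Angptl4 and the other members was not tested. Stromal markers summed to at most 0.222 CPM in any library. The adipocyte markers Adipoq and Lep were at 0 in all 14 libraries, and Plin1 was at 0 in all but KO ES replicate 1, which had 0.0952 CPM.

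**Figure D5:**
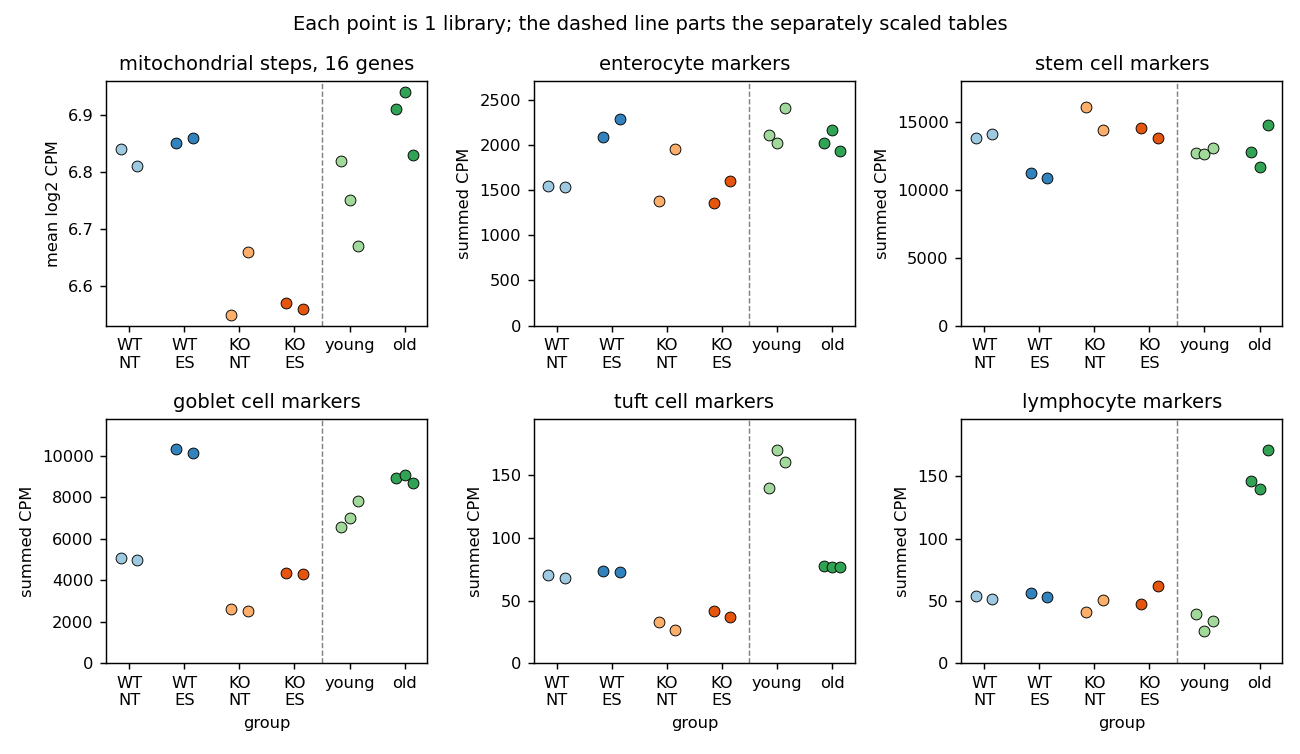
Mean log2 CPM of the 16 mitochondrial members (first panel, axis not from 0) and summed CPM of 5 lists of cell type markers (other panels, axes from 0), with a point per library and a dashed line between the tables, which were scaled separately. The mitochondrial mean lies at 6.55 to 6.66 in the KO libraries and 6.81 to 6.86 in the WT libraries of the Chrm3 table, and at 6.67 to 6.94 in the ageing table, and the lymphocyte sum lies at 140 to 171 CPM in old.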

How the data were processed

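The deposited tables hold raw counts per gene that the authors made, unscaled whole numbers, in separate tables of 8 libraries (Chrm3) and 6 libraries (ageing). Per the labels, libraries were strand-specific TruSeq preparations of Trizol-extracted RNA. The submitters' processing notes name mm10 and FastQC 0.11.2, and the aligner, the counting tool and its strand setting were not given in the sources used here. Columns named Ctrl were read as NT. No column was left unmapped. Positions, exon lengths and transcripts are from GENCODE M21 and promoters from RefSeq, both on GRCm38, the build of mm10.

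In R 4.3.3, genes were kept by filterByExpr, counts were scaled by TMM, and each table by itself was fitted with 1 mean per group by the quasi-likelihood method of edgeR 4.0.16, so that the 8 libraries of the Chrm3 experiment shared 1 estimate of the spread. Genes with a Benjamini-Hochberg adjusted p under 0.05 over all tested genes are said to have risen or fallen. The SE was derived from the fold change and its F statistic. Mean log2 CPM used a prior count of 2. Lists are described by counts and medians, with no set test. On simulated counts the share of false calls was 3.7% in the ES in WT design, under the threshold used. It was 8.29% in the ageing design, above that threshold. Each design was simulated in a single draw, so the spread of these shares is not known. The simulated libraries were drawn independently, so they do not speak to dependence among the real ones.

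The members and lists were chosen with earlier results of these data known. Values in every library are given for called members, up to 10 per comparison by p, and always for Ppara, Ppard, Pparg, Ppargc1a, Cpt1a, Hadha, Ehhadh and Pdk4. From each wider list up to 3 called genes per comparison are named, by p, with Acaa1a, Hsd17b4 and Fabp1 always eligible; some genes that the rule names are not reported here. The printing rule for promoter matches took only called members, and the 3 uncalled ones were added. Of the members, 7 overlap another annotated gene on the same strand and 14 on the other strand, so some of their reads may belong to those genes. Alternatives were relative log expression size factors, no count filter, a filter at 1 CPM, DESeq2 1.42.0, limma-voom (limma 3.58.1), a replicate term, fits of the 2 groups compared, a threshold of 0.10, summed rows of a symbol and leaving out each library. The quasi-likelihood test in its older form was added after seeing the data.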

Additional observations from a re-analysis of the deposited data

How the results depend on the processing

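No call of a member changed sign under any alternative run. The 0 calls for ES in WT became 3 with DESeq2, 6 with only the 2 groups fitted, 3 at an adjusted p under 0.10 and 0 to 3 with a library left out. The share of all tested genes called moved as well, from 3.48% to 5.92%, 11.4%, 7.04% and 0.125% to 6.62% in the same order. For ES in KO there was 1 with DESeq2 (1.3% of all genes) and 0 to 1 with a library left out (0.06% to 1.52%). For KO in NT the 8 calls became 2 with no count filter (1.07% of all genes), 5 with only the 2 groups fitted (3.56%) and 1 to 8 with a library left out (0.79% to 4.63%). For KO in ES the 16 became 8 with no count filter (2.01%) and 5 to 17 with a library left out (2.05% to 10.6%). The contrast of both ES effects had 2 calls with DESeq2 (1.22%) and 0 to 4 with a library left out (0% to 1.98%). Old against young kept within 6 to 10 with a library left out (3.67% to 8.61%). Of its 8 calls, 7 held in every other alternative. The share of all genes called there ran from 2.32% with no count filter to 12% with the replicate block. The cause of these shifts was not tested.

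With a library left out, the mitochondrial median ranged from -0.02 to 0.03 for ES in WT, -0.10 to -0.01 for ES in KO, -0.25 to -0.14 for KO in NT, -0.30 to -0.25 for KO in ES and -0.15 to -0.02 for the difference of the ES effects. The peroxisomal median ranged from -0.21 to 0.05 for KO in NT, -0.24 to -0.14 for KO in ES, -0.14 to 0.00 for the difference and 0.02 to 0.12 in old against young. For KO in ES the mitochondrial median was -0.27 with no count filter and -0.28 with only the 2 groups fitted. Summed rows changed nothing, as each member has 1 identifier.

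The labels do not say whether replicate numbers pair the libraries. The deviations of same-numbered libraries correlated at r = -0.00832 to 0.103 in the Chrm3 table and 0.00454 to 0.0837 in the ageing table. Different-numbered ageing libraries correlated at r = -0.105 to 0.0269. In groups of 2 libraries the different-numbered values only mirror the same-numbered ones. These correlations over all genes therefore cannot decide whether the libraries were paired. With the replicate block, 1 member was called for ES in WT and 1 for the difference of the ES effects, Ppargc1a in each. Those fits called 5.59% and 0.599% of all tested genes, beside 3.48% and 0.109% without the block. Groups of 2 libraries and the low counts of Pdk4, Acot12, Acaa1b and Cyp4a10 limit what these comparisons can show.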

Other observations

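Genes that make fat rather than burn it were also measured. In KO against WT, Scd2, a stearoyl-CoA desaturase, rose from 98.7 ± 2.73 CPM (SD, n = 2) to 363 ± 12 CPM without ES (log2 fold change 1.88 ± 0.17 SE, edgeR adjusted p = 0.000169) and from 106 ± 35.9 to 367 ± 38.3 CPM with ES (1.79 ± 0.17, adjusted p = 0.000204). Without ES the lipogenic factor gene Srebf1 rose (0.36 ± 0.07, adjusted p = 0.017) and Acacb, whose product makes the malonyl-CoA that restrains Cpt1a, fell (-0.90 ± 0.17, adjusted p = 0.0143). With ES the acetyl-CoA carboxylase gene Acaca (0.44 ± 0.10, adjusted p = 0.0276) and the citrate lyase gene Acly (0.31 ± 0.07, adjusted p = 0.0285) rose. Of the 10 genes of this list 2 rose and 1 fell without ES, and 3 rose with ES, where 4.47% and 7.56% of all tested genes were called. With ES in WT the elongase gene Elovl6 rose (0.37 ± 0.07, adjusted p = 0.0206). In old against young, Me1, the cytosolic malic enzyme, fell from 16 ± 0.423 to 6.44 ± 0.388 CPM (SD, n = 3), or to 0.402-fold (-1.32 ± 0.11, adjusted p = 5.86e-05).

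Of 10 lipid droplet genes, 1 was called in KO with ES, 1 with ES in WT and 2 of 9 tested in old, where 7.56%, 3.48% and 7.84% of all tested genes were called. The count in KO with ES is thus close to the share of all genes. Dgat2, which makes triglyceride, fell in KO with ES (-0.84 ± 0.12, edgeR adjusted p = 0.00208), and Lipe, a hormone-sensitive lipase, rose with ES in WT (0.71 ± 0.16, adjusted p = 0.0431). In old the lipase gene Pnpla2 rose (0.26 ± 0.07, adjusted p = 0.0407) and the coat gene Plin3 fell (-0.23 ± 0.06, adjusted p = 0.0476). The transporter gene Slc27a1 fell with ES in WT (-0.44 ± 0.08, adjusted p = 0.0227) and in KO without ES (-0.46 ± 0.08, adjusted p = 0.0123).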
